A study of Mus musculus with 12 samples.

Results

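Dorsal and ventral astrocytes of the early postnatal mouse spinal cord were compared on 6 of the 12 arrays of the series, 3 of astrocytes from the dorsal cord and 3 of astrocytes from the ventral cord. The members were taken by their labels (region and sort) and not by any measured value. The dorsal astrocytes and the ventral astrocytes came from Aldh1l1-GFP transgenic animals, of Swiss-Webster background, at postnatal day 7, and were the GFP-positive cells of a papain dissociation, separated by flow sorting. The other 6 arrays hold GFP-negative cells sorted in the same way, 3 of dorsal non-astrocytes and 3 of ventral non-astrocytes. In these animals the regulatory sequence of Aldh1l1, a gene of folate metabolism that is active in most astrocytes, drives green fluorescent protein, so that an astrocyte with little reporter would be sorted with the other cells. All 4 groups carry the transgene. The labels call the 3 samples of a group biological replicates, and the labels do not say whether an array holds cells of 1 animal or of several pooled animals.

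The spinal cord is patterned along its dorsal to ventral axis before any glia are born. Sonic hedgehog from the floor plate and bone morphogenetic proteins and Wnts from the roof plate divide the progenitors into bands that each express their own set of transcription factors. Astrocytes arise from these bands, migrate outwards along radial lines and settle at the level at which they were born, next to sensory circuits dorsally and motor circuits ventrally. The comparison asks how far the transcripts of postnatal astrocytes still differ with that position.

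Signals are log2 values after robust multi-array averaging (RMA), the background correction, quantile normalisation and probe summary for this kind of array. A difference of 1 on this scale is a 2-fold change, and differences are given as dorsal minus ventral, so that a positive one means higher in dorsal astrocytes. Such signals rank the arrays for a probe set and do not rank genes against each other. A probe set was called when its adjusted p (limma, Benjamini-Hochberg over all 28467 probe sets tested, two-sided) was under 0.05. Names were known for 5116 probe sets of 4575 genes, nearly all of them from a table that the authors had selected on astrocytes against non-astrocytes, so genes equal in both sorts are mostly unnamed here. The 6 astrocyte arrays had almost equal median signals (6.57 to 6.62 over the 12 arrays). The number of arrays, 3 a group, limits the precision.

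Dorsal and ventral astrocytes differed little over the array as a whole. The log2 difference over all probe sets tested had a median of -0.02 and an SD of 0.2, and 95% of the probe sets lay between -0.38 and 0.4. Pearson's r between 2 arrays, a description over probe sets that share the platform and its normalisation, was 0.988 within dorsal astrocytes, 0.986 to 0.988 within ventral astrocytes and 0.984 to 0.989 between a dorsal and a ventral array. On the first principal component of the 6 arrays, which held 27.3% of the variance, the dorsal arrays scored 0.48, 0.47 and 0.20 and the ventral arrays -0.59, -0.34 and -0.21. The second component, with 22.2%, set both arrays of replicate 3 apart, at 0.49 dorsally and 0.65 ventrally against -0.38 to -0.22 for the other 4.

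Astrocyte markers had more signal in the GFP-positive than in the GFP-negative cells of both regions. Nearly all names come from a table selected on that contrast, which favours such a gap. The same selection bears on the means of both sorts given for other lists below. Over 23 astrocyte markers measured under a name, the mean log2 signal per array was 10.94 to 11.12 in dorsal astrocytes and 11.03 to 11.11 in ventral astrocytes, against 7.80 to 7.92 in dorsal non-astrocytes and 7.75 to 8.01 in ventral non-astrocytes. Of these markers 0 were called in either direction by limma (2 at an unadjusted p under 0.05), with a median difference of 0.00, beside 0.341% of all probe sets called. Aqp4, the water channel of astrocyte endfeet, had 11.65 ± 0.14 dorsally and 11.61 ± 0.07 ventrally (SD, n = 3 each), a difference of 0.04 with a 95% interval of -0.38 to 0.47. Aldh1l1, the gene behind the sorting reporter, had 9.65 ± 0.35 dorsally and 9.32 ± 0.21 ventrally, a difference of 0.33 with an interval of 0.00 to 0.67. Gfap, the intermediate filament of astrocytes, had 9.67, 10.43 and 10.59 dorsally and 10.52, 11.15 and 10.79 ventrally, and its difference was -0.59 with an interval of -1.19 to 0.01. Slc1a3, a glutamate transporter, differed by -0.21 with an interval of -0.39 to -0.03, and its adjusted p was 0.40 (limma). Beside Slc1a3 the marker of lowest p was Acsbg1, an acyl-CoA synthetase, at -0.24 (adjusted p = 0.45).

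Against this common ground, 97 probe sets were called, 0.341% of those tested. Of these, 38 (0.133%) were higher in dorsal astrocytes and 59 (0.207%) in ventral astrocytes, and 44 (0.155%) differed at least 2-fold, 19 dorsally and 25 ventrally. Names were known for 62 of the 97, which represent 60 genes, 22 higher dorsally and 38 higher ventrally. This is 1.21% of the 5116 named probe sets, the share to set beside the counts of calls in the gene lists below. Those lists were written with earlier results of these data known, so such counts do not test a list. In all 97 the dorsal and the ventral arrays did not overlap, which held for 12.5% of all probe sets tested, with the dorsal arrays above in 5.29% and the ventral arrays above in 7.23%. A call favours such a gap, so the gaps given for single genes below add no support to their calls. The median size of the log2 difference was 1.11 over the 22 dorsal genes and 1.0 over the 38 ventral genes, and the smallest were 0.54 and 0.5. The count was lower without dorsal replicate 1 (46), ventral replicate 1 (62) or ventral replicate 2 (48), and it was 46 when probe sets numbered like array controls were tested too, 35 with array weights and 27 in a fit to the 6 astrocyte arrays only. In bulk samples, fewer cells of a type and less RNA per cell cannot be told apart, which touches every difference that follows.

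**Figure D1:**
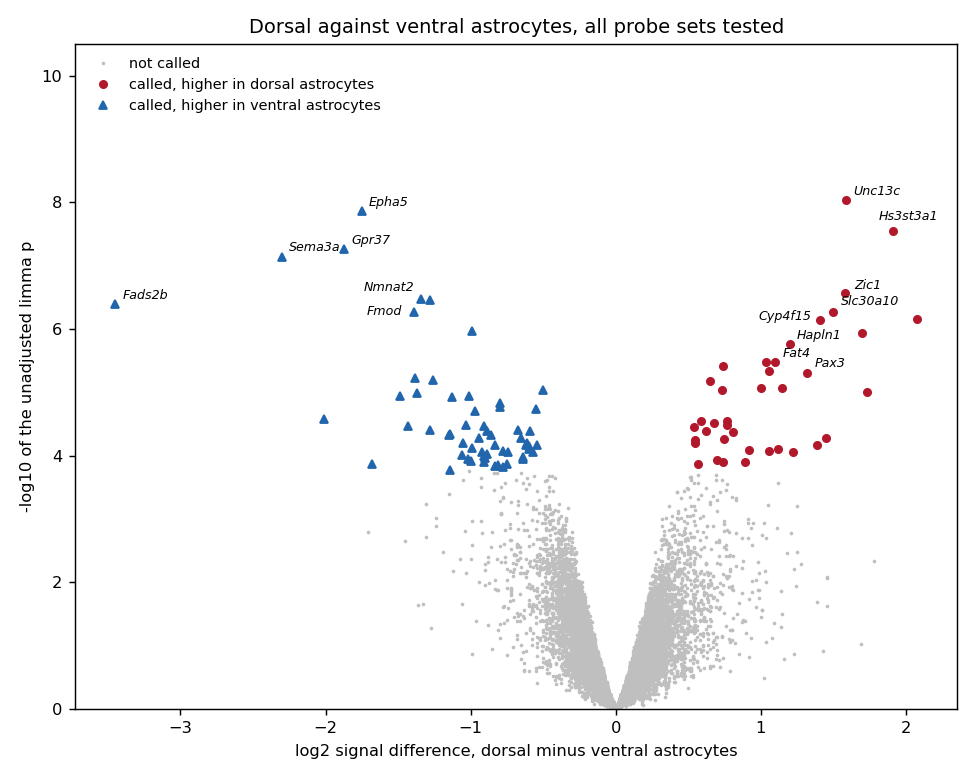
Each point is 1 of the 28467 probe sets, with its log2 signal difference (dorsal minus ventral astrocytes) on the horizontal axis and -log10 of its unadjusted limma p on the vertical axis. The 38 called probe sets higher in dorsal astrocytes (red circles) lie to the right and the 59 higher in ventral astrocytes (blue triangles) to the left, with Fads2b furthest out at -3.45.

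Of the transcription factors of the dorsal progenitor bands, Zic1 and Pax3 were called, both higher in dorsal astrocytes. Zic1, a zinc finger factor of the dorsal neural tube, had 8.81, 8.46 and 8.62 in dorsal astrocytes and 7.3, 6.92 and 6.94 in ventral astrocytes. The lowest dorsal array lay above the highest ventral one, and the difference was 1.58 (SE 0.16, adjusted p = 0.0012), or 2.98-fold. Pax3, a paired box factor of dorsal progenitors and neural crest, had 8.35, 8.31 and 8.09 dorsally and 7.32, 6.91 and 6.55 ventrally. Its groups were also apart, at 1.32 (SE 0.17, adjusted p = 0.0067). In non-astrocytes the same 2 genes had smaller dorsal minus ventral differences, 0.33 for Zic1 and 0.37 for Pax3, neither of them called.

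Of 24 listed dorsal progenitor patterning genes 5 were measured under a name, and Zic1 and Pax3 were the 2 called, both dorsally, beside 1.21% of all named probe sets. Among those not called were Gdf10, a bone morphogenetic protein relative, at -0.48 and Msx1, a homeobox target of bone morphogenetic proteins, at -0.14. Of 16 listed ventral progenitor patterning genes 5 were measured under a name and 1 was called, Sulf2 on the ventral side. Pax6 (0.27), Olig2 (0.15), Dbx2 (0.07) and Nkx2-2 (-0.02), all transcription factors of intermediate or ventral bands, were not. Of 15 Hox genes (30 listed, median 0.05), 10 Sonic hedgehog pathway genes (16 listed, median 0.01) and 18 bone morphogenetic protein and Wnt pathway genes (38 listed, median -0.01) limma called 0, with 1, 3 and 6 at an unadjusted p under 0.05. Those of lowest p were Hoxa2 at 0.55 and Hoxb6 at 0.31, the hedgehog co-receptors Boc at 0.45 and Cdon at -0.40, and Gdf10 and the ligand Wnt5a at 0.48 (adjusted p from 0.11 to 0.57 in limma). Listed genes without a name here could not be assessed, so these lists are a partial view of patterning.

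The promoter windows of 4 genes of large difference are given here, since they carry the DNA next to the start sites of a dorsal patterning gene, a dorsal matrix gene and a pair of ventral guidance genes. Each window is the 250 bases before the start of transcription in RefSeq on GRCm38.p6, written in the direction of transcription. Zic1 lies at chr9:91365769-91366018 on the minus strand, Hs3st3a1 at chr11:64435082-64435331 on the plus strand, Sema3a at chr5:13396534-13396783 on the plus strand and Epha5 at chr5:84417383-84417632 on the minus strand. Capitals mark 3 motifs searched on both strands: the E-box CANNTG, the homeodomain core TAATTA, and GGGTGG, a core shared by GLI and ZIC proteins, which reads CCACCC on the other strand.
Zic1: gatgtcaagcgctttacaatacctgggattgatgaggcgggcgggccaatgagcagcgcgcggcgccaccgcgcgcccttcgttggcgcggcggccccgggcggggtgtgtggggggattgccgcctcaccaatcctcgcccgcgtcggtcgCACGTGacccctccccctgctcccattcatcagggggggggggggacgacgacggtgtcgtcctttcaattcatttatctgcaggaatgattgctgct
Hs3st3a1: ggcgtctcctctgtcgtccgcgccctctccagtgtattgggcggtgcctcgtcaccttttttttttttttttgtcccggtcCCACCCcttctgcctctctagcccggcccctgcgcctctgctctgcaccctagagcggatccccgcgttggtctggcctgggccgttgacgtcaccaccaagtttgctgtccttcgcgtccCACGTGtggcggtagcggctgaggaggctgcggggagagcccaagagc
Sema3a: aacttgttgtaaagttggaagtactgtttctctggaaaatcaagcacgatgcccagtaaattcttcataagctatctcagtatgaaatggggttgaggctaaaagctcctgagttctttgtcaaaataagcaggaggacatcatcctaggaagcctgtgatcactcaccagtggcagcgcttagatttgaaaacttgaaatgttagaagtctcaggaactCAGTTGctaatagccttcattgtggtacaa
Epha5: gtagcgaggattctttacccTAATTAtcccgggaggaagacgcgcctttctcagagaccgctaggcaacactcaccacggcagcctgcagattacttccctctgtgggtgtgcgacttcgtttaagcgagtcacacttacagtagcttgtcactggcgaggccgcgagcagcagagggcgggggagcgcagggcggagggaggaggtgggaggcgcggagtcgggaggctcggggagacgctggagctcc

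An E-box stood in the windows of Zic1, Hs3st3a1 and Sema3a, the GGGTGG core in that of Hs3st3a1 and the homeodomain core in that of Epha5. The GC content was 66.0% for Zic1, 64.0% for Hs3st3a1, 62.4% for Epha5 and 40.8% for Sema3a, with 27, 20, 20 and 2 CpG dinucleotides. RefSeq windows were matched for 18 of the 22 dorsal genes (19 windows) and for 32 of the 38 ventral genes (38 windows). The E-box was found in 47.4% of the dorsal and 68.4% of the ventral windows, against 66.2% of all 32851 windows in the table. The GGGTGG core was in 42.1% of the dorsal and 26.3% of the ventral windows, against 28.1% of all. The homeodomain core was in 0 of the 19 dorsal and 5.26% of the ventral windows, against 4.84% of all. Letters of different motifs can overlap, a match is a description of the letters and not a binding site, and with so few windows these shares were not tested.

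Of the called genes 3 were grouped under axon guidance, a grouping made after their values were seen, and all 3 were higher in ventral astrocytes. Over all probe sets tested, 0.207% were called ventrally and 0.133% dorsally. Sema3a, a secreted semaphorin that repels growing axons and keeps sensory fibres out of the ventral cord, had 5.55, 6.24 and 5.64 in dorsal astrocytes and 7.72, 8.51 and 8.09 in ventral astrocytes. All ventral arrays lay above all dorsal ones, by -2.30 (SE 0.21, adjusted p = 0.00042) or 4.92-fold. In non-astrocytes Sema3a had 5.64 ± 0.24 dorsally and 5.71 ± 0.08 ventrally (SD, n = 3 each), close to the dorsal astrocytes. Epha5, a receptor tyrosine kinase for ephrin-A ligands, had 7.13, 7.45 and 7.13 dorsally and 8.87, 9.21 and 8.88 ventrally, a difference of -1.75 (SE 0.14, adjusted p = 0.0002). Reln, the secreted glycoprotein reelin that guides the placement of migrating neurons, was 2.08-fold higher ventrally, at 9.08 ± 0.30 dorsally and 10.14 ± 0.19 ventrally (adjusted p = 0.029).

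These 3 were the called genes so grouped, and each was a single call within its list. Of 18 semaphorins, neuropilins and plexins measured under a name, Sema3a alone was called, and the next of lowest p were Sema3d at -0.48 (adjusted p = 0.16) and Plxna4 at 0.18 (adjusted p = 0.58). The median of this list was -0.09. Of 6 ephrins and Eph receptors, Epha5 alone was called, with Ephb1 at -0.46 (adjusted p = 0.10) and Epha7 at -0.37 (adjusted p = 0.16) next and a median of -0.19. Of 9 slits, netrins and their receptors 0 were called (3 at an unadjusted p under 0.05), the nearest being the netrin receptors Neo1 at -0.33 and Dcc at -0.46. Reln and Pax6 were the 2 measured members of the short list of genes of the position code of white matter astrocytes, which also holds Nkx6-1 and Slit1. Reln is also made by neurons, and of the 3 dorsal horn neuron markers measured it was the one called, while Tac1, the gene of the neuropeptide substance P, had 1.14 in the opposite direction (adjusted p = 0.33).

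**Figure D2:**
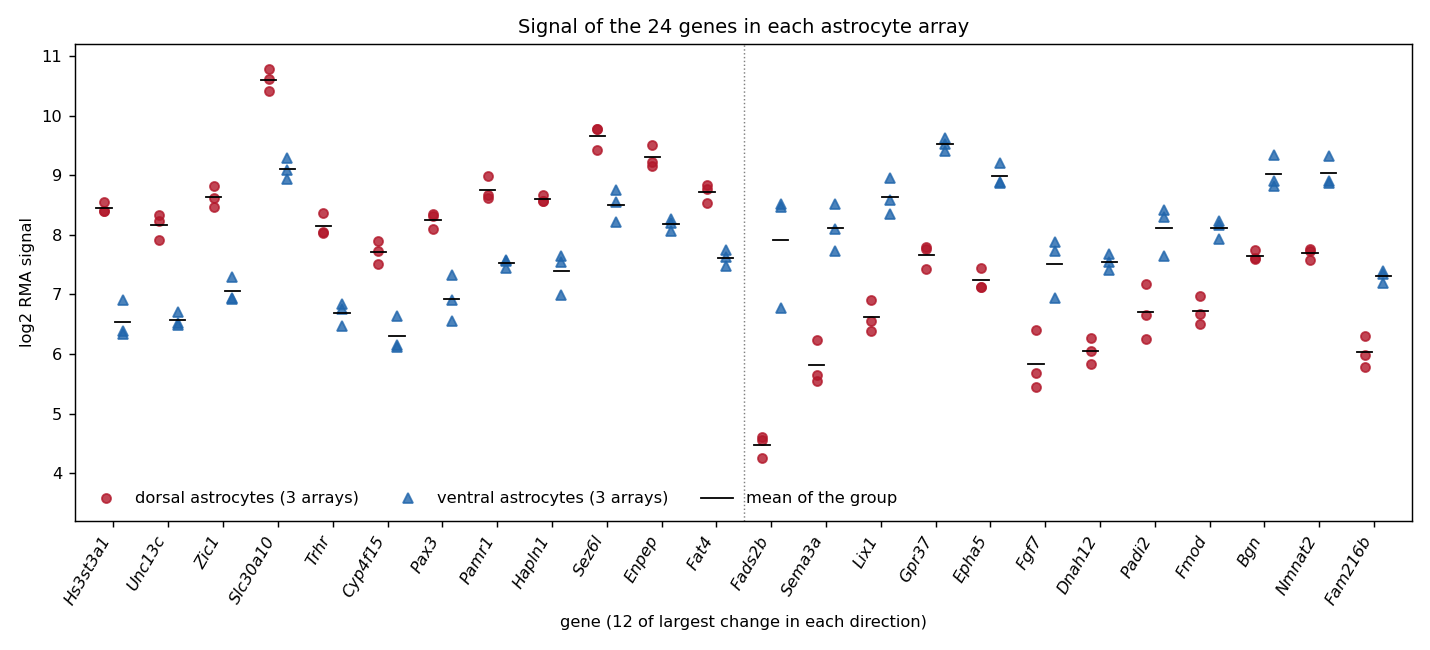
Log2 RMA signal (vertical axis) of the 12 genes of largest change in each direction, with 1 point for each of the 3 dorsal astrocyte arrays (red circles) and the 3 ventral astrocyte arrays (blue triangles) and a line at each group mean. The 24 genes were chosen among the called ones, in all of which the groups do not overlap, against 12.5% of all probe sets tested. The widest spread is that of Fads2b in ventral astrocytes, 6.77 to 8.52.

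Genes of the extracellular matrix were called on both sides. The largest dorsal difference of any named gene was that of Hs3st3a1, an enzyme that adds a rare sulfate group to heparan sulfate chains and so changes what they bind. It had 8.40, 8.55 and 8.40 in dorsal astrocytes and 6.33, 6.38 and 6.91 in ventral astrocytes, a difference of 1.91 (SE 0.16, adjusted p = 0.00027) or 3.76-fold. Its lowest dorsal array stood clear of all ventral arrays, and its mean in non-astrocytes was 5.09 dorsally and 5.24 ventrally. Sulf2, which trims sulfate groups from the same chains, went the other way, with 7.75, 7.14 and 7.69 dorsally and 8.54, 8.97 and 8.45 ventrally (-1.13, SE 0.16, adjusted p = 0.010). Non-astrocytes had more Sulf2 signal than either astrocyte group, 9.96 ± 0.09 dorsally and 9.91 ± 0.04 ventrally. Among 15 heparan sulfate genes measured under a name these 2 were called, beside 1.21% of all named probe sets, and the median of the list was -0.12.

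Hapln1, the link protein that ties proteoglycans to hyaluronan, had 8.56, 8.57 and 8.66 in dorsal astrocytes and 6.99, 7.65 and 7.54 in ventral astrocytes. The dorsal arrays were nearly equal and the ventral ones more spread, at a difference of 1.20 (SE 0.14, adjusted p = 0.0031). Pamr1, a secreted protein with a peptidase domain known from regenerating muscle, had 8.66, 8.98 and 8.62 dorsally and 7.45, 7.56 and 7.58 ventrally, at 1.22 (SE 0.22, adjusted p = 0.033). Galnt14, which starts sugar chains on secreted proteins, was also higher dorsally, at 0.74.

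On the ventral side stood Fmod and Bgn, both small leucine-rich proteoglycans that bind collagen and growth factors. Fmod had 6.67, 6.51 and 6.97 dorsally and 7.93, 8.23 and 8.16 ventrally, at -1.39 (SE 0.15, adjusted p = 0.0014). Bgn had 7.75, 7.61 and 7.59 dorsally and 8.82, 9.34 and 8.91 ventrally, at -1.38 (SE 0.19, adjusted p = 0.0077). Neither pair of groups overlapped. Itih5, of a protein family that binds hyaluronan, followed at -1.14 and P3h2, which hydroxylates prolines of collagen, at -0.94. Of 21 extracellular matrix genes measured under a name 4 were called, Hapln1 and Pamr1 dorsally and Fmod and Bgn ventrally, and the median was -0.05. Of all named probe sets 1.21% were called, and this list was written with earlier results of these data known. The tenascins and lecticans that astrocytes make in quantity were not called, among them Tnc (-0.17), Tnr (-0.49), Ncan (-0.24), Bcan (0.03) and Vcan (-0.27).

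Fmod, Bgn and Fgf7 are also genes of fibroblasts and meninges. They were the 3 called of 7 such markers measured under a name, out of 18 listed, beside 1.21% of all named probe sets called. The other 4 were Fbln1 at -0.28, Col1a2 at 0.29, Igf2 at 0.31 and Islr at 0.55. The mean signal of the 7 was 7.04 to 7.35 in dorsal astrocytes and 7.58 to 7.92 in ventral astrocytes, against 6.67 to 6.90 in dorsal non-astrocytes and 6.74 to 6.79 in ventral non-astrocytes. This mean includes the 3 called genes and was lower in both non-astrocyte groups. Of the other 4, Fbln1, Col1a2 and Islr also had less signal in non-astrocytes than in astrocytes of the same region. Igf2 had more, 7.31 dorsally and 7.36 ventrally in non-astrocytes against 6.96 and 6.65 in astrocytes. The part of meningeal cells in these differences was not tested.

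Secreted growth factors and regulators of growth factor signals gave 5 called genes. Fgf7, a fibroblast growth factor of mesenchymal cells, had 5.68, 5.44 and 6.4 in dorsal astrocytes and 6.94, 7.88 and 7.73 in ventral astrocytes. The highest dorsal and the lowest ventral array were 6.4 and 6.94, and the difference of -1.68 (SE 0.31, adjusted p = 0.042) was among the last to pass. Pmepa1, a membrane protein that dampens transforming growth factor beta signals, was at -0.99 (adjusted p = 0.0022), and Nell2, a secreted ligand of neural cells, at -0.61. Igf2bp2, which binds growth factor messenger RNAs, was at -0.91. In the opposite direction Il17rd, an inhibitor of fibroblast growth factor signalling, was higher dorsally with 2 probe sets, both at 1.06. Of 13 fibroblast growth factors and response genes Fgf7 was the one called, and the median was 0.08.

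Adhesion and junction genes were called 5 times on the ventral side and 1 time on the dorsal side. Fat4, a giant cadherin of planar cell polarity, was the dorsal one, with 8.54, 8.76 and 8.84 in dorsal astrocytes and 7.74, 7.63 and 7.47 in ventral astrocytes. Its groups were apart by 1.10 (SE 0.14, adjusted p = 0.0053). Dmd, dystrophin, which anchors the cytoskeleton of astrocyte endfeet to the basement membrane, was higher ventrally at -0.62 (adjusted p = 0.029). The other ventral ones were the adaptor Sorbs2 at -0.99, Vstm4, an immunoglobulin domain protein, at -0.81, Pkp4, a plakophilin of cell junctions, at -0.65, and Ildr2, an immunoglobulin-like receptor, at -0.64.

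Receptors, transporters, channels and their intracellular partners were called 6 times on each side. Slc30a10, a manganese exporter, had 10.61, 10.41 and 10.78 in dorsal astrocytes and 9.08, 9.28 and 8.94 in ventral astrocytes, at 1.5 (SE 0.16, adjusted p = 0.0014). In non-astrocytes it had 7.99 ± 0.21 dorsally and 8.06 ± 0.31 ventrally (SD, n = 3 each). Trhr, the receptor of thyrotropin releasing hormone, had 8.36, 8.04 and 8.03 dorsally and 6.76, 6.84 and 6.47 ventrally. Its difference of 1.45 (SE 0.24, adjusted p = 0.026) had a larger error than that of Slc30a10, and the dorsal non-astrocyte arrays of Trhr had an SD of 0.65. Also higher dorsally were Pde8a, which breaks down cyclic AMP (0.92), Gabbr2, a subunit of the metabotropic GABA receptor (0.77), Rasa2, which switches off RAS (0.59), and Ano6, a lipid scramblase (0.57).

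Gpr37, an orphan receptor of glia, led the ventral side of this group with 7.79, 7.42 and 7.76 in dorsal astrocytes and 9.53, 9.41 and 9.62 in ventral astrocytes. The ventral arrays lay close together and clear of the dorsal ones, at -1.87 (SE 0.16, adjusted p = 0.0004). The further ventral genes were Ppp2r2c, a regulatory subunit of protein phosphatase 2A (-1.01), the calcium release channel partner Fkbp1b (-0.91), the phospholipase Plcb1 (-0.91), Gpr158, a receptor of the metabotropic glutamate receptor class (-0.86), and Kcne1l, an accessory subunit of potassium channels (-0.80). The listed genes by which astrocytes handle glutamate, GABA and potassium gave no call. Of 25 such genes 0 were called (4 at an unadjusted p under 0.05), with a median of 0.02, and those of lowest p were the glutamate receptor Grm3 at 0.99 (adjusted p = 0.27) and the cystine exchanger Slc7a11 at 0.53 (adjusted p = 0.36).

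Gpr37 and Padi2, an enzyme that converts arginine in proteins to citrulline, are also made by oligodendrocytes. Padi2 had 6.26, 6.65 and 7.18 in dorsal astrocytes and 7.65, 8.3 and 8.41 in ventral astrocytes, at -1.43 (SE 0.23, adjusted p = 0.022). Of 16 myelinating oligodendrocyte markers measured under a name 0 were called (7 at an unadjusted p under 0.05), but 15 were higher ventrally and 1 dorsally, with a median of -0.27 in astrocytes and -0.26 in non-astrocytes. Their mean signal was 8.3 to 8.74 in dorsal astrocytes and 8.81 to 8.91 in ventral astrocytes, against 10.52 to 10.81 in dorsal non-astrocytes and 10.89 to 11.06 in ventral non-astrocytes. The ones of lowest p were Mbp at -0.53 (adjusted p = 0.093) and Fa2h at -0.73 (adjusted p = 0.16). In non-astrocytes Gpr37 was at -0.44 and Padi2 at -0.56, and the part of oligodendrocyte RNA in both differences was not tested.

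Genes better known from synapses and neurons were called 3 times on each side. Unc13c, a factor that readies synaptic vesicles for release, had the lowest p on the dorsal side, with 8.23, 7.91 and 8.34 in dorsal astrocytes and 6.49, 6.52 and 6.71 in ventral astrocytes. The difference was 1.59 (SE 0.12, adjusted p = 0.0002), and another probe set of the gene gave 0.81. Sez6l, a membrane protein of neurons, had 9.77, 9.78 and 9.43 dorsally and 8.75, 8.55 and 8.22 ventrally, at 1.15 (SE 0.16, adjusted p = 0.0095). Dbndd2, a dysbindin domain protein, was at 1.00, and was the one dorsal gene whose mean was not above that of the non-astrocytes of its region, 9.33 against 9.45.

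Nmnat2, the enzyme of NAD synthesis that keeps axons alive, was higher ventrally, with 7.76, 7.73 and 7.57 dorsally and 9.32, 8.90 and 8.87 ventrally. The groups lay apart by -1.34 (SE 0.14, adjusted p = 0.0012). Scrg1, a secreted protein named for its response to scrapie, was at -1.28 (SE 0.13, adjusted p = 0.0012) and Brinp2, a neural secreted protein, at -0.57. Of 8 pan-neuronal markers 0 were called (3 at an unadjusted p under 0.05). The mean signal of these markers was 7.17 to 7.44 in dorsal astrocytes and 7.22 to 7.80 in ventral astrocytes, against 8.15 to 8.42 in dorsal non-astrocytes and 8.19 to 8.32 in ventral non-astrocytes, and their median difference was -0.19. Nefm at -0.85 (adjusted p = 0.16) and Nefl at -0.76 (adjusted p = 0.23), both neurofilament genes, had the lowest p. Unlike the mean of the list, both had more signal in astrocytes. Nefm had 7.61 dorsally and 8.46 ventrally against 7.3 and 7.2 in non-astrocytes, and Nefl 8.54 and 9.3 against 8.17 and 7.82. The part of neuronal RNA was not tested. Astrocyte factors that regulate synapses, 14 measured under a name, gave 0 calls (2 at an unadjusted p under 0.05) and a median of -0.12, with the thrombospondin Thbs2 at -0.48 (adjusted p = 0.38) and the glypican Gpc6 at -0.30 (adjusted p = 0.40) lowest in p.

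Besides the enzymes grouped above under other roles, such as Hs3st3a1, Sulf2 and Nmnat2, enzymes were called 3 times dorsally and 7 times ventrally. The largest difference among the called named genes was that of Fads2b, a member of the fatty acid desaturase family. It had 4.56, 4.25 and 4.60 in dorsal astrocytes and 6.77, 8.46 and 8.52 in ventral astrocytes, at -3.45 (SE 0.36, adjusted p = 0.0013). Over the alternatives run it was -4.07 to -3.07, and with the dorsal signals far below the array medians its fold is uncertain. Ventral replicate 1 lay well below the other ventral arrays and still above all dorsal ones. Non-astrocytes had 3.83 ± 0.37 dorsally and 3.68 ± 0.18 ventrally (SD, n = 3 each), so that the dorsal astrocytes were near the level of the non-astrocytes.

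Cyp4f15, a cytochrome that oxidises fatty acids, had 7.73, 7.90 and 7.51 in dorsal astrocytes and 6.64, 6.11 and 6.15 in ventral astrocytes, at 1.41 (SE 0.16, adjusted p = 0.0016). Enpep, the aminopeptidase that trims angiotensin, had 9.16, 9.51 and 9.22 dorsally and 8.06, 8.20 and 8.27 ventrally, at 1.12 (SE 0.20, adjusted p = 0.032). Both genes had groups that did not overlap. Pnp, of purine salvage, was higher dorsally at 0.70. Ventral enzymes of this group besides Fads2b and Padi2 were Hpgd, which inactivates prostaglandins (-1.02), the serine protease Tmprss11d (-0.89), Aldh1a1, which makes retinoic acid (-0.83), Ggct, of glutathione turnover (-0.55), and Pgpep1, which removes terminal pyroglutamate from peptides (-0.50). Aldh1a1 and Hpgd had signals of 9.65 ± 0.21 and 10.36 ± 0.09 in ventral astrocytes, against 6.92 ± 0.14 and 6.38 ± 0.40 in ventral non-astrocytes.

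Among the called genes 4 are known from motile cilia or grouped with them, a grouping made after their values were seen, and these 4 were higher ventrally and had negative values in non-astrocytes too. Dnah12, a dynein heavy chain of ciliary axonemes, had 5.83, 6.05 and 6.27 in dorsal astrocytes and 7.41, 7.55 and 7.67 in ventral astrocytes. The difference was -1.49 (SE 0.21, adjusted p = 0.010 in limma), and in non-astrocytes it was also -1.49 (adjusted p = 0.037), from 6.06 ± 0.52 dorsally and 7.55 ± 0.23 ventrally. With the replicate number as a block in the fit, 0 probe sets were called in non-astrocytes, so the call of Dnah12 there was lost. Fam216b had 6.30, 5.79 and 5.99 dorsally and 7.19, 7.39 and 7.35 ventrally, at -1.28 (SE 0.21, adjusted p = 0.023), and in non-astrocytes it was at -1.05 (adjusted p = 0.19). Cfap54, a protein of the ciliary central apparatus, was at -1.06 in astrocytes and -0.58 in non-astrocytes, and Mns1, of cilia and flagella, at -0.78 and -0.39.

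Ependymal cells, which line the central canal and carry such cilia, were assessed by 4 of 23 listed markers that were measured under a name. Dnah12 was the one called, Mia was at -0.94, Rarres2 at -0.23 and Stk33 at 0.14. Their mean signal was 7.38 to 7.61 in dorsal astrocytes and 8.08 to 8.22 in ventral astrocytes, against 6.43 to 6.90 in dorsal non-astrocytes and 7.51 to 7.61 in ventral non-astrocytes. The ventral arrays were thus the higher ones in both sorts, in a mean that includes the called Dnah12. The part of ependymal cells in the differences of these 4 cilium genes was not tested.

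The 3 remaining called genes were Lix1, 4933439C10Rik and Rcbtb2. Lix1, first described in the developing limb, had 6.55, 6.39 and 6.91 in dorsal astrocytes and 8.35, 8.58 and 8.95 in ventral astrocytes, at -2.01 (SE 0.31, adjusted p = 0.020). Its dorsal non-astrocyte arrays had a wide spread (SD 0.81). 4933439C10Rik was at 0.54 and Rcbtb2 at 0.55, both higher dorsally.

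The 35 called probe sets without a name were 14 higher dorsally and 21 higher ventrally, with log2 differences of -1.37 to 2.08. The furthest dorsal one, probe set 10358660, had 6.24, 6.13 and 5.62 in dorsal astrocytes and 3.81, 4.04 and 3.90 in ventral astrocytes, a larger difference than that of any named dorsal gene. The furthest ventral one, probe set 10344981, had means of 4.75 dorsally and 6.12 ventrally. Among the dorsal ones, 10594963 (1.73), 10594971 (1.39), 10594948 (1.04) and 10594969 (0.65) are numbered close to the Unc13c probe sets 10594967 and 10594973. Whether they read the same gene is not known here, so the called probe sets need not be separate genes.

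**Figure D3:**
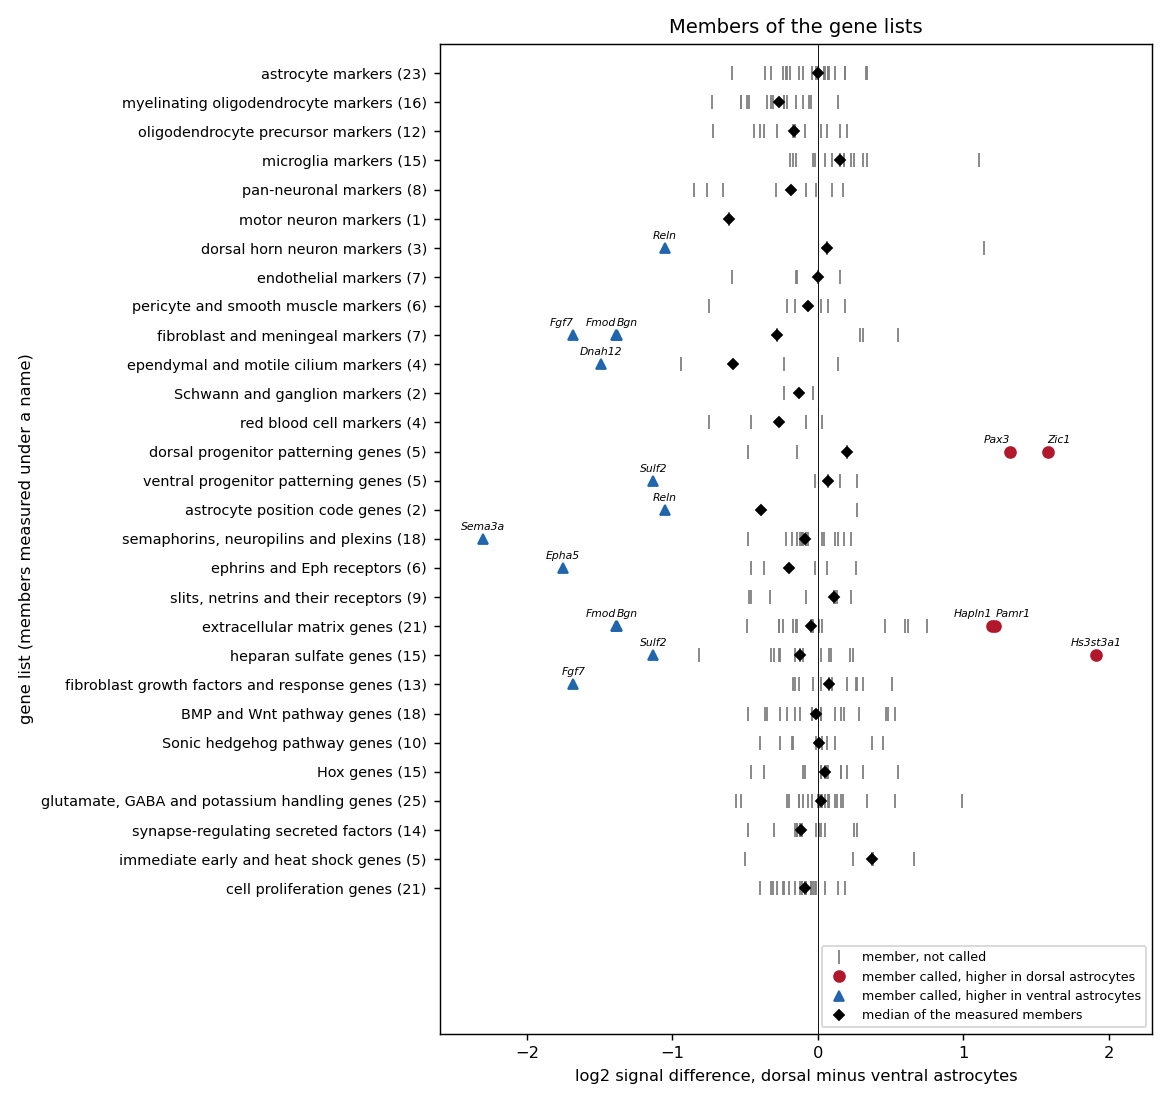
Log2 signal difference (dorsal minus ventral astrocytes, horizontal axis) of every measured member of the 29 gene lists (rows, with the number measured), as ticks for members not called, red circles for those called dorsally and blue triangles for those called ventrally, and a diamond at the median. Of the 29 lists 11 have a called member, and the astrocyte marker list has its median at 0.00.

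Other cell types and states gave few or no calls among the 29 lists, of which 11 held a called member and 18 did not. Beside this, 0.341% of all probe sets tested and 1.21% of the named ones were called. For lists this short, here and above, 0 calls is near that share and does not show that their genes are equal. Of 15 microglia markers 0 were called (1 at an unadjusted p under 0.05), with a median of 0.15, and those of lowest p were the complement genes C3ar1 at 1.11 (adjusted p = 0.15) and C1qb at 0.18 (adjusted p = 0.63). Their mean signal was 6.4 to 6.99 in dorsal astrocytes and 6.37 to 6.81 in ventral astrocytes, against 8.78 to 9.03 in dorsal non-astrocytes and 8.27 to 8.81 in ventral non-astrocytes. Of 12 oligodendrocyte precursor markers 0 were called (3 at an unadjusted p under 0.05, median -0.17), with C1ql1 at -0.72 (adjusted p = 0.20) and Lhfpl3 at -0.44 (adjusted p = 0.23) lowest in p. Likewise 0 were called of 7 endothelial, 6 pericyte, 4 red blood cell and 2 Schwann cell markers, with 2 red blood cell markers at an unadjusted p under 0.05. Those of lowest p were Ly6c1 (-0.59) and Pecam1 (0.15) for endothelium, Cspg4 (-0.16) and Rgs5 (-0.75) for pericytes, and the hemoglobin genes Hba-a1 (-0.46) and Hbb-b1 (-0.75) for red blood cells. The 1 motor neuron marker measured under a name, Ret, was not called either, at -0.61 (adjusted p = 0.059). Of 21 cell proliferation genes, 3 were higher dorsally and 18 ventrally, with 0 called or at an unadjusted p under 0.05, a median of -0.09 and values of -0.40 for Cdk1 to 0.19, Mki67 being next in p at -0.28. Of 5 immediate early and heat shock genes, which dissociation and sorting can induce, 0 were called (1 at an unadjusted p under 0.05), the median was 0.37 in astrocytes and 0.38 in non-astrocytes, and Fos was at 0.66 (adjusted p = 0.31) and Dusp1 at 0.38 (adjusted p = 0.56).

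The same regional contrast was tested in the non-astrocytes. Here 14 probe sets (0.0492%) were called between dorsal and ventral non-astrocytes, 5 dorsally and 9 ventrally. With the replicate number as a block, 0 were called (1716 at an unadjusted p under 0.05). This block sets arrays of the same number together over both sorts. Both sorts shared 5 called probe sets, 5.15% of the astrocyte calls and 35.7% of the non-astrocyte calls, and Dnah12 was the named one among them. Of the 97 probe sets called in astrocytes, 93 had a smaller difference in non-astrocytes, a property that choosing them on the astrocyte values favours. Their median size was 0.94 in astrocytes and 0.19 in non-astrocytes, and 61 had the same direction in both.

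The test of the difference between both regional contrasts called 18 probe sets (0.0632%), of which 16 were also called between dorsal and ventral astrocytes. The count was 12 with the replicate block, 10 of them among the 18, 3 with control-type probe sets tested too and 2 to 14 with 1 of the 12 arrays left out. Of the 16, 13 had a name. Dorsally they were Hs3st3a1 (1.91 in astrocytes and -0.15 in non-astrocytes), Unc13c (1.59 and 0.39), Slc30a10 (1.5 and -0.07), Cyp4f15 (1.41 and 0.01) and Dbndd2 (1.00 and -0.24). Ventrally they were Fads2b (-3.45 and 0.15), Sema3a (-2.30 and -0.07), Epha5 (-1.75 and 0.19), Nmnat2 (-1.34 and 0.24), Scrg1 (-1.28 and -0.04), Gpr158 (-0.86 and 0.48), Dmd (-0.62 and 0.34) and Nell2 (-0.61 and 0.35). For Gpr158, Dmd and Nell2 the non-astrocytes thus had values of the opposite sign, none of them called. With the replicate block Slc30a10, Dbndd2, Gpr158, Scrg1, Nell2 and Cyp4f15 were not called (adjusted p from 0.057 to 0.1 in limma). With each array left out in turn, Epha5 and Hs3st3a1 alone kept their call in all 12 fits of limma, and Nmnat2 kept it in 9, Sema3a in 5, Unc13c and Slc30a10 in 2 and the other 7 in 1. Zic1 (adjusted p = 0.11) and Pax3 (adjusted p = 0.35) did not pass this test, so their regional difference is not shown to be unlike that of the other cells.

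**Figure D4:**
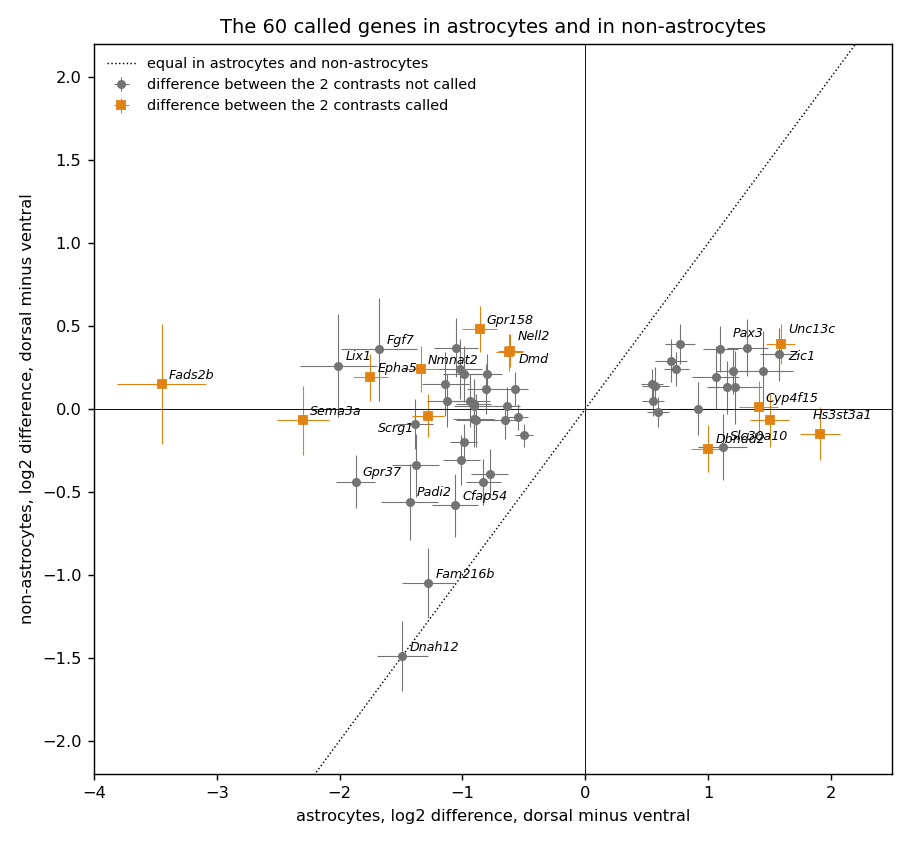
Dorsal minus ventral log2 difference of the 60 called genes in astrocytes (horizontal axis) and in non-astrocytes (vertical axis), with bars of 1 SE of limma and a dotted line where both are equal. Orange squares mark the 13 genes called for the difference between both contrasts. Most genes lie near 0 on the vertical axis, and Dnah12 lies on the line at -1.49 in both.

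Most of the region-dependent genes had more signal in astrocytes than in the other cells of their region. This held for 21 of the 22 dorsal genes against dorsal non-astrocytes and for 30 of the 38 ventral genes against ventral non-astrocytes, but the names were mostly selected on that contrast. The 8 ventral genes with more signal in ventral non-astrocytes included Sulf2, Ggct, Igf2bp2, Mns1 and Pkp4. In the group with less signal, 3 of the dorsal and 11 of the ventral genes lay below the median of the arrays, where a fold change tends to be understated.

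The authors' deposited table of dorsal against ventral astrocytes lists 39 probe sets, and all 39 were among the 97 called here. Of these, 25 have in the authors' deposited table an adjusted p under 0.05. The log2 fold changes in the authors' deposited table and those computed here differed by at most 4.5e-09. The 58 called probe sets that are not in the authors' deposited table include 23 with a name, whose median size of 0.7 was smaller than the 1.28 of those listed. The 23 include Gabbr2, Dmd, Pnp, Aldh1a1, Hpgd, Nell2 and Gpr158, all described above.

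The calls differed in how they depended on single arrays. With 1 of the 6 astrocyte arrays left out in turn, 22 of the 60 genes were called in every fit. These were Hs3st3a1, Unc13c, Zic1, Slc30a10, Cyp4f15, Pax3, Hapln1, Sez6l, Fat4, Dbndd2 and Galnt14 dorsally and Fads2b, Sema3a, Gpr37, Epha5, Fmod, Bgn, Nmnat2, Scrg1, Sulf2, Pmepa1 and Pgpep1 ventrally. A further 10 were called in 0 of the 6 fits, namely Trhr, Pamr1, Enpep, Ano6, Hpgd, Aldh1a1, Igf2bp2, Fkbp1b, Ildr2 and Brinp2, with the highest adjusted p between 0.11 for Trhr and 0.15 for Ano6. Each of the other 28 lost its call in at least 1 such fit, for Dnah12 and Ppp2r2c only without dorsal replicate 1 (adjusted p = 0.057 each). Reln was called in 2 of the 6, Fgf7 in 2, Lix1 in 2, Padi2 in 2 and Fam216b in 1.

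At the edge of the threshold, the last named probe sets inside were those of Fgf7, Vstm4 and Mns1 (adjusted p = 0.042, 0.043 and 0.045). Just outside were Rnd1, a small GTPase, at -0.82 (adjusted p = 0.053), Hopx, a homeodomain-only protein of stem cells and astrocytes, at 0.69 (adjusted p = 0.055), and Palld, palladin of the actin cytoskeleton, at 0.51 (adjusted p = 0.058).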

How the data were processed

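RNA of the sorted cells was purified with Trizol, treated with DNase, cleaned on a column, amplified and labelled with biotin, per the labels' protocols. The submitters' processing notes name oligo, RMA and limma, without versions. The deposited series table of the authors holds log2 RMA values of 35556 probe sets. The authors' 2 tables of comparisons give, per the file headers, gene names, the same log2 values, a linear fold change, and limma's t score with its raw and adjusted p-values for each listed probe set.

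Of the 35556 probe sets, 476 repeated another in all arrays and were collapsed, and a leading run of 6613 consecutively numbered ones, of which 0 had a name, was taken from that numbering for array controls and left out, leaving 28467. Names came from matching the 12 values of a probe set, at 6 decimals, with both tables of comparisons. All 5158 and 39 entries matched, of which 4327 and 34 are RefSeq symbols of GRCm38.p6, 641 and 5 synonyms and 190 and 0 were not found, and 3 probe sets with conflicting names stayed unnamed.

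Group means of all 12 arrays were fitted with limma 3.58.1 in R 4.3.3 (lmFit, eBayes, 8 residual and 4.6 prior degrees of freedom). The fit was also run on simulated independent normal values with the means and spread of these data, without a shared effect of replicate. The contrasts were dorsal minus ventral astrocytes, the same for non-astrocytes, and the difference of both, each two-sided with Benjamini-Hochberg adjustment over all probe sets. Tables, promoter windows and figures were made with Python 3.11.15, pandas 2.3.3, numpy 2.4.6 and matplotlib 3.10.9. Per-array values are given for the 12 named genes of largest change in each direction, with the brightest probe set for a gene of several. RIKEN clones, predicted genes and small RNAs were excepted, and all other called named genes are given by their difference. Of lists with no call, the members of lowest p are named, except for some that are not reported here. The comparison, the gene lists and the rules were chosen with earlier results of these data known, and the roles, the promoters shown and the alternatives for non-astrocytes after their values were seen.

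The authors' tables number the arrays of replicates 1, 2 and 3 as 3, 5 and 8, without saying what a number shares. Deviations of same-numbered arrays from their group means correlated at 0.041, 0.0695 and 0.145 between dorsal and ventral astrocytes. Between dorsal and ventral non-astrocytes they correlated at 0.172, 0.147 and 0.209. Other astrocyte pairs had -0.101 to 0.034, so each astrocyte array also correlated best with its own number. A pairing was taken to exist for the non-astrocytes, and a pairing of the astrocytes was not tested. The main fit had no replicate block for any contrast, that of the non-astrocytes included. With the block, the calls were 108 instead of 97 in astrocytes, 12 instead of 18 for the difference and 0 instead of 14 in non-astrocytes.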

Additional observations from a re-analysis of the deposited data

Results flagged for a closer look

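The regional difference of astrocytes departed from that of non-astrocytes at 18 probe sets by the interaction test of limma (adjusted p from 0.0065 to 0.048), and this test is what selected the values here. Values are the astrocyte difference minus the non-astrocyte difference, each dorsal minus ventral, with 3 arrays a group. On the dorsal side they were 2.06 (SE 0.22) for Hs3st3a1, 1.56 (SE 0.23) for Slc30a10, 1.39 (SE 0.22) for Cyp4f15, 1.24 (SE 0.20) for Dbndd2 and 1.20 (SE 0.17) for Unc13c. On the ventral side they were -3.60 (SE 0.51) for Fads2b, -2.23 (SE 0.29) for Sema3a, -1.94 (SE 0.19) for Epha5, -1.58 (SE 0.20) for Nmnat2, -1.33 (SE 0.20) for Gpr158, -1.24 (SE 0.19) for Scrg1 and -0.96 (SE 0.15) for both Nell2 and Dmd. Without a name were probe sets 10358660 at 2.51, 10490775 at 1.81 and 10495657 at 1.27, all called dorsally in astrocytes, and 10398386 at -0.74, which was not called there. Slc14a1, a urea transporter gene, had 0.93 (SE 0.12), and here the non-astrocytes carried the difference. It had 10.44 ± 0.10 in dorsal and 10.29 ± 0.04 in ventral astrocytes, and 5.96 ± 0.10 in dorsal and 6.74 ± 0.07 in ventral non-astrocytes (SD, n = 3 each). With each of the 12 arrays left out in turn, Epha5 and Hs3st3a1 were the 2 of these 14 genes called in every fit.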

How the results depend on the processing

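No gene result changed its direction under any alternative run. For dorsal against ventral astrocytes, with 97 calls, the count was 159 at an adjusted p of 0.10, 44 with at least a 2-fold change asked, 46 with control-type probe sets tested too (24 dorsal and 22 ventral), 35 with array weights and 27 with the astrocyte arrays alone, and leaving out replicates gave 26 to 100 (38 without replicate 1 and 26 without replicate 2 of both groups, 46 without dorsal replicate 1, 62 without ventral replicate 1, 48 without ventral replicate 2). For the difference of both contrasts, with 18 calls, the count was 3 with control-type probe sets and 2 to 14 with replicates left out. It was 14 without ventral astrocyte replicate 1, dorsal astrocyte replicate 3 or dorsal non-astrocyte replicate 3, and 2 to 7 without any other single array. For non-astrocytes, with 14 calls and alternatives chosen after seeing the data, the count was 0 with control-type probe sets (1698 at an unadjusted p under 0.05), 43 with array weights and 0 to 31 with replicates left out (0 without any one ventral array, 4 without dorsal replicate 1, 2 without dorsal replicate 2, 31 without dorsal replicate 3). A replicate block gave 108 calls in astrocytes (85 of the 97 among them), 12 for the difference (10 of the 18 among them) and 0 in non-astrocytes (1716 at an unadjusted p under 0.05). The labels give the astrocyte replicates only a shared number. Correlations of their same-numbered deviations were 0.041, 0.0695 and 0.145 against -0.101 to 0.034 for other pairs. Each astrocyte array correlated best with its own number, and a pairing of the astrocytes was not tested. Fewer arrays leave fewer degrees of freedom, and other causes of these changes were not tested. Trend with robust fitting, probe sets above the median signal and arrays centred on their median gave 99, 75 and 92 calls in astrocytes. Of the 60 genes 14 were called with each single astrocyte array left out and under every setting that kept all their arrays and tested them. Of these, Cyp4f15, Fads2b, Fmod, Hs3st3a1 and Sema3a were not among the probe sets above the median signal, so that setting did not test them.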

Other observations

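Some listed genes had regional groups that did not overlap without being called. Groups did not overlap for 12.5% of all probe sets tested, so this property does not set the genes below apart. Grm3, a metabotropic glutamate receptor of astrocytes, had 10.51, 10.41 and 9.69 in dorsal astrocytes and 9.66, 9.14 and 8.85 in ventral astrocytes (0.99, SE 0.31, adjusted p = 0.27). The basement membrane gene Nid1 had 9.02, 9.08 and 8.64 dorsally and 8.37, 8.35 and 7.76 ventrally (0.75, SE 0.18, adjusted p = 0.14). Hoxa2, a Hox transcription factor, had 6.95, 6.73 and 6.88 dorsally and 6.04, 6.41 and 6.45 ventrally (0.55, SE 0.12, adjusted p = 0.11). Ret, a receptor of glial cell line-derived neurotrophic factors and the measured 1 of 9 listed motor neuron markers, had 6.29, 6.54 and 6.32 dorsally and 6.83, 7.00 and 7.15 ventrally (-0.61, SE 0.12, adjusted p = 0.059). The microglia gene C3ar1 had 6.38, 7.00 and 7.18 dorsally and 5.16, 6.32 and 5.75 ventrally (1.11, SE 0.27, adjusted p = 0.15). All adjusted p are from limma.

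Of the 14 probe sets called in non-astrocytes, 9 were not called in astrocytes. The dorsal minus ventral differences of 4 of these follow. Adgrl2, an adhesion receptor read by several probe sets of which 1 was called, had 0.17 in astrocytes and 1.00 in non-astrocytes. The phosphodiesterase Pde7b had 0.02 in astrocytes and 0.79 in non-astrocytes, and the potassium channel Kcnd2 had -0.10 in astrocytes and 0.66 in non-astrocytes. Etv5, a target of fibroblast growth factor signalling, had 0.31 in astrocytes and 0.58 in non-astrocytes. These 4 were called in non-astrocytes (adjusted p = 0.043, 0.037, 0.046 and 0.037 in limma), and 0 probe sets were called with the replicate block. Their difference between both cell fractions was not called (adjusted p from 0.16 to 0.66 in the interaction test).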
